A study of Mus musculus with 18 samples.

Results

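The 10 genes described here are markers of tuft cells: Pou2f3, Gfi1b, Spib, Trpm5, Rgs13, Alox5ap, Dclk1, Avil, Fyb and Cd24a. They were chosen by name from knowledge of the cell type, at a time when earlier results of these data were known. All 10 were found among the 43432 gene identifiers of the count tables. Tuft cells are rare chemosensory cells of the intestinal epithelium. They sense luminal metabolites through a taste-like cascade in which G-protein-coupled receptors lead to phospholipase C, calcium release and the cation channel TRPM5, and they release IL-25 and leukotrienes. These signals activate innate lymphoid cells, whose IL-13 acts back on the crypt and favours tuft and goblet cell formation.

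RNA was measured in 18 libraries from the intestinal epithelium of mice 8 to 16 weeks old, labelled as intestinal stem cells and obtained by flow sorting. The 4 groups were wild type at 2 days (48 hours) after tamoxifen (n = 4), Dlg1 conditional knock-out at 2 days (n = 4), wild type at 14 days (n = 5) and Dlg1 conditional knock-out at 14 days (n = 5), so every mouse, wild type included, had received tamoxifen. Dlg1 encodes a scaffold protein of cell polarity, and the series' title concerns its place with ARHGAP31 and CDC42 in the Wnt response of these cells. The labels do not give the alleles, the Cre driver, the sorting gate, the strain or whether each library came from its own animal, so the tests weigh genotype differences against a spread that may be technical. The 2-day columns that begin with Dmin were read as Dlg1 minus, and the 2-day and combined comparisons rest on that reading.

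Depth, as the total count of a library, was 14.8 to 40.5 M (mega) counts in the 2-day table and 11.1 to 15.7 M in the 14-day table. Levels are given as CPM, the normalised read count relative to the scaled total of the library. Dlg1 itself was at 45.7 ± 8.49 CPM in the knock-out and 59.4 ± 9.18 in the wild type at 2 days (SD, n = 4 each). The fitted log2 fold change was -0.38 (SE 0.19), with a Benjamini-Hochberg adjusted p of 0.866 in the quasi-likelihood test of edgeR. At 14 days it was at 64.3 ± 23.8 and 72.0 ± 12.0 CPM (SD, n = 5 each, edgeR adjusted p = 0.957), so the counts of the targeted gene did not separate the genotypes at either time. Counts over the whole gene do not show whether a deleted exon is missing. Stem cell markers of the crypt base, with Lgr5 and Olfm4 among 8 genes, summed to 4217–5570 CPM at 2 days and 2085–3229 CPM at 14 days, far above the tuft markers other than Cd24a. Wild-type library 1 at 2 days had the largest total and the largest mitochondrial share, 49.1%. In knock-out library 5 at 14 days predicted gene models took 48.1% of all reads, while elsewhere in the 14-day table they took 1.32% to 11.7%.

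Pou2f3, the factor required for the tuft lineage, belongs to the POU family, whose members bind the octamer motif ATGCAAAT. The 250 bases before the start site were therefore searched on both strands for the octamer and for its first 7 bases, ATGCAAA (reverse complement TTTGCAT), which every octamer contains. RefSeq windows on GRCm38.p6 were matched for 7 of the 10 markers and gave 8 windows, because Dclk1 had 2. Pou2f3, Alox5ap and Cd24a were not matched. None of the 8 windows held the octamer, which 526 of 32851 windows of this length held (1.60%). The shorter core was found in 1 of the 8, that of Avil, and in 1355 of all windows (4.12%). The windows shown are those of 3 markers: that of Avil with its matches in capitals, 115 and 15 bases before the start, and those of Trpm5 and Spib, which encode the channel of the taste-like cascade and a lineage factor, for comparison.
Avil (chr10:127000459-127000708, + strand, GRCm38.p6): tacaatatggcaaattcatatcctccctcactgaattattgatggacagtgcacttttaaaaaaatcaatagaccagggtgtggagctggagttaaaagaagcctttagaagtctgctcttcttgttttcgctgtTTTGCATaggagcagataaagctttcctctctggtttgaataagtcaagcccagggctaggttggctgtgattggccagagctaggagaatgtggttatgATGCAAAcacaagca
Trpm5 (chr7:143094643-143094892, - strand, GRCm38.p6): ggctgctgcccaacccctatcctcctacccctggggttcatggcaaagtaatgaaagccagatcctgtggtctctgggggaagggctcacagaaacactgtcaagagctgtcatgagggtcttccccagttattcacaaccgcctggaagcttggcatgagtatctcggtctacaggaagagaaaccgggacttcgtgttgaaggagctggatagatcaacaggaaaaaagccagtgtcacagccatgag
Spib (chr7:44532072-44532321, - strand, GRCm38.p6): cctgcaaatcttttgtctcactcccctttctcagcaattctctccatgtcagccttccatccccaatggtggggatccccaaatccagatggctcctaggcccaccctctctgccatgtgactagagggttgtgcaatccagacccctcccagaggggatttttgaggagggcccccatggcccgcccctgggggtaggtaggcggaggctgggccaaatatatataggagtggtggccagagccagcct
The Avil window held 2 matches of the core, 1 on each strand, and 81 of all 32851 windows held 2 or more (0.247%). The Spib window holds TGCAAAT, the last 7 bases of the octamer, near its first letters. That form was not searched for, so a window without the core may still hold octamer-like letters. A match of letters describes a window and shows no binding.

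The CPM of the markers were scaled within each time's table by TMM factors. Libraries are given in the order 1 to 4 at 2 days and 1 to 5 at 14 days; the numbers follow the columns of the table and pair nothing across groups. In bulk samples fewer cells of a type and less RNA per cell cannot be told apart. The counting program's strand setting is not given in the sources used here, so reads from genes that overlap on opposite strands may have been mixed.

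Of the transcription factors, Pou2f3 (chromosome 9, 43123939 to 43210369, minus strand, GRCm38) was at 4.4, 7.46, 2.27 and 0.860 CPM in the knock-out libraries at 2 days and at 1.30, 6.58, 2.76 and 4.69 CPM in the wild type. The groups overlapped over most of their range, and the highest and the lowest value both came from the knock-out. Its log2 fold change was -0.02 (SE 0.66, edgeR adjusted p = 0.994). At 14 days Pou2f3 was at 2.92, 2.47, 8.19, 2.70 and 5.42 CPM in the knock-out and at 4.12, 2.82, 9.59, 2.97 and 3.51 CPM in the wild type. One library of each genotype, number 3 in both, stood above the rest of its group, and the log2 fold change was -0.08 (SE 0.45, edgeR adjusted p = 0.992). The lineage factor therefore had the smallest difference of the 10 markers at 14 days, and the sign of both differences turned when single libraries were left out (-0.61 to 0.37 at 2 days and -0.46 to 0.37 at 14 days).

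Gfi1b (chromosome 2, 28609450 to 28621982, minus strand), a zinc-finger repressor found in tuft cells and in red cell and platelet precursors, was near the limit of detection. At 2 days it had 0, 59, 0 and 5 reads in the knock-out libraries and 0, 0, 0 and 3 in the wild type, and it failed the filter on low counts. A count of 0 allows up to 3 reads, which is 0.109 to 0.173 CPM in the 5 libraries without a read. Summed over libraries the knock-out had 64 reads and the wild type 3, a ratio of 21.4 per unscaled total count with a 95% exact interval of 7.0 to 106 that covers counting error only. Knock-out library 2 held 59 of the 64 reads, and the other 3 knock-out libraries together held 5. At 14 days Gfi1b was at 0.172, 0.771, 0.0828, 0.421 and 1.28 CPM in the knock-out and at 1.39, 0.528, 3.65, 0.504 and 0.689 CPM in the wild type. The groups overlapped, with all 5 knock-out libraries below the wild-type mean of 1.35 CPM, which wild-type library 3 raised. Between the genotypes the log2 fold change was -1.33 (SE 0.76, edgeR adjusted p = 0.957), and -0.57 without that library.

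Spib (chromosome 7, 44525993 to 44532071, minus strand) encodes an ETS-family factor of tuft cells that M cells and B cells also use. At 2 days it was at 4.01, 4.90, 0.553 and 5.10 CPM in the knock-out and at 0.543, 1.93, 1.27 and 1.40 CPM in the wild type. In 3 of 4 knock-out libraries it was above every wild-type library, while library 3 lay among the lowest of all. The log2 fold change of 1.5 (SE 0.69) had an unadjusted p of 0.0496 and an adjusted p of 0.866 by edgeR's quasi-likelihood test. At 14 days Spib was at 8.42, 1.46, 6.29, 3.20 and 2.0 CPM in the knock-out and at 3.09, 1.64, 7.67, 2.30 and 1.75 CPM in the wild type. The groups overlapped, with a log2 fold change of 0.40 (SE 0.55, edgeR adjusted p = 0.961). Without knock-out library 1 the difference was -0.00013, and without wild-type library 3 it was 0.97.

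Among the chemosensory genes, Trpm5 (chromosome 7, 143069153 to 143094642, minus strand) encodes the calcium-activated cation channel that ends the taste-like cascade. It shares 220 exon bases with Tssc4 on the opposite strand. At 2 days Trpm5 was at 6.35, 17.7, 3.87 and 3.32 CPM in the knock-out and at 5.07, 9.80, 2.01 and 2.59 CPM in the wild type. Library 2 was the highest of its group in both genotypes, and the groups overlapped. Its log2 fold change was 0.69 (SE 0.61, edgeR adjusted p = 0.890) and turned to -0.11 without knock-out library 2. At 14 days Trpm5 was at 10.2, 9.94, 21.0, 13.8 and 15.7 CPM in the knock-out and at 9.76, 7.22, 19.3, 10.3 and 10.3 CPM in the wild type. Library 3 was the highest of each group, and the log2 fold change was 0.32 (SE 0.29, edgeR adjusted p = 0.957). Without knock-out library 3 it was 0.12, and without wild-type library 3 it was 0.59.

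Rgs13 (chromosome 1, 144138654 to 144177372, minus strand) encodes a protein that speeds the shut-off of G-protein signals. At 2 days it was at 0.440, 1.67, 0.221 and 0.737 CPM in the knock-out and at 1.19, 0.297, 0.0576 and 0.701 CPM in the wild type. These values stand on 1 to 60 reads per library, and the groups overlapped, with a log2 fold change of 0.44 (SE 0.92, edgeR adjusted p = 0.946). Leaving out knock-out library 2 gave -0.29, and leaving out wild-type library 1 gave 1.12. At 14 days Rgs13 was at 8.51, 1.46, 17.9, 4.55 and 6.28 CPM in the knock-out and at 8.36, 1.82, 2.78, 2.30 and 1.5 CPM in the wild type. In 4 of 5 knock-out libraries it was above the wild-type mean of 3.35 CPM, and the wild-type group had 1 high library. Between the genotypes the log2 fold change of 1.2 (SE 0.60) was the largest of the markers at 14 days, with an unadjusted p of 0.0647 and an adjusted p of 0.957 by edgeR. Without knock-out library 3 it was 0.61, and without wild-type library 1 it was 1.88.

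Alox5ap (chromosome 5, 149264767 to 149288153, plus strand) encodes FLAP, the protein that hands arachidonic acid to 5-lipoxygenase in leukotriene synthesis. It shares 189 exon bases with Gm19719 on the opposite strand. At 2 days Alox5ap was at 0.635, 1.22, 1.77 and 0.737 CPM in the knock-out and at 0.326, 0.198, 0.0576 and 0.270 CPM in the wild type. Every knock-out library lay above every wild-type library, on 12 to 44 reads in the knock-out and 1 to 9 in the wild type. At 2 days Alox5ap passed the filter on low counts only through its knock-out libraries. The separation therefore follows in part from that filter and is a description only. The log2 fold change was 2.31 (SE 0.78), about 4.95-fold, with an unadjusted p of 0.0118, but the adjusted p was 0.866 by edgeR's quasi-likelihood test, and the difference did not pass. At 14 days it was at 3.09, 3.24, 7.95, 4.97 and 4.85 CPM in the knock-out and at 3.58, 0.997, 4.89, 1.51 and 1.63 CPM in the wild type. All 5 knock-out libraries were above the wild-type mean of 2.52 CPM, though 2 wild-type libraries reached into their range. Its log2 fold change was 0.95 (SE 0.46, unadjusted p = 0.0610, edgeR adjusted p = 0.957). Leaving out single libraries gave 1.97 to 2.59 at 2 days and 0.68 to 1.32 at 14 days, so no single library turned the sign of Alox5ap.

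The plot of CPM by library shows the 10 markers side by side.

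**Figure D1:**
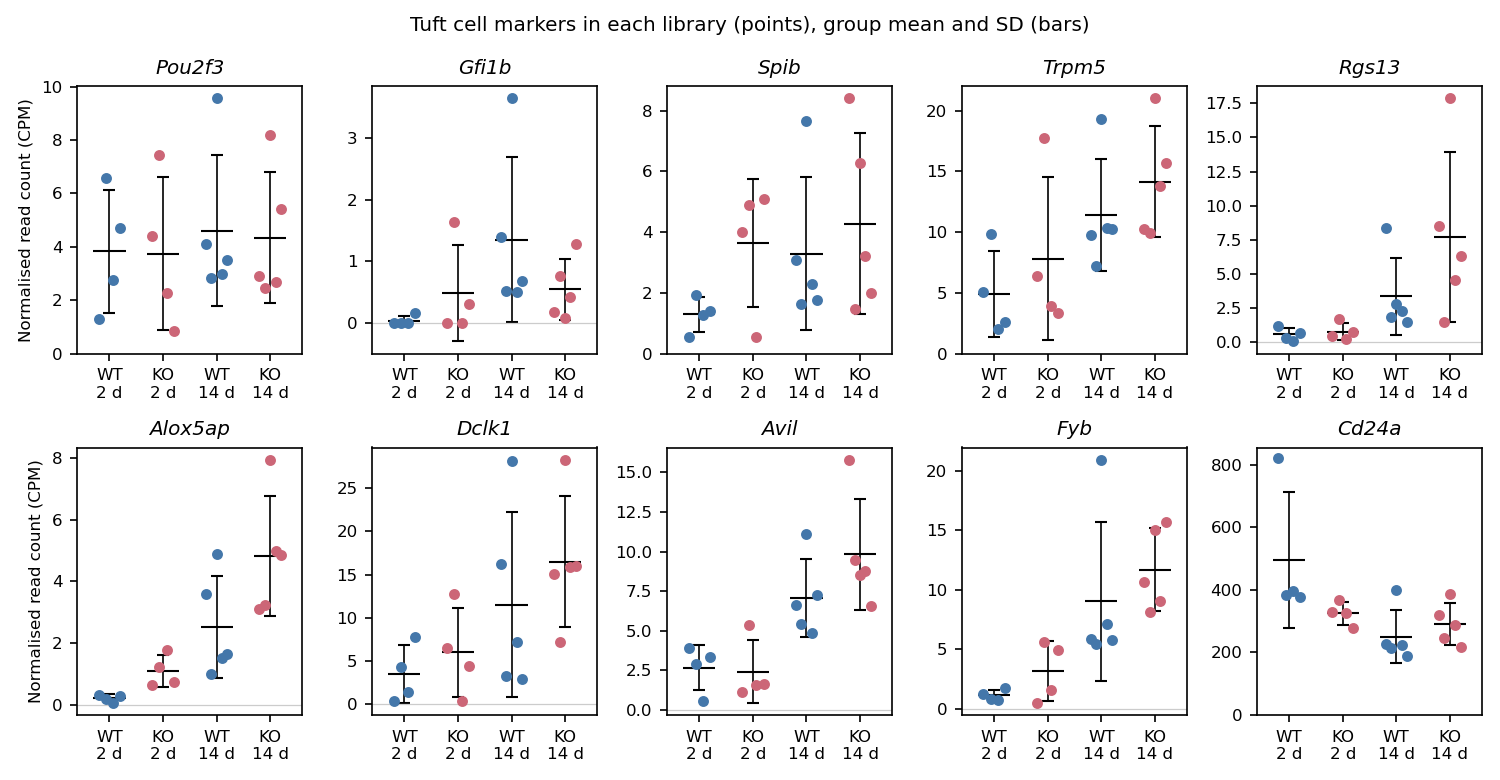
CPM (vertical axis, linear, own scale per gene) of the 10 markers in each library (points), for wild type (WT, blue) and Dlg1 knock-out (KO, red) at 2 and 14 days (d), with the group mean (line) and SD (bar). Alox5ap at 2 days is the marker whose knock-out libraries, 0.635 to 1.77 CPM, all sit above the wild type, 0.0576 to 0.326 CPM, and Cd24a at 2 days the one whose knock-out libraries all sit below. At 2 days Alox5ap passed the filter on low counts only through its knock-out libraries.

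Of the cytoskeletal genes, Dclk1 (chromosome 3, 55242364 to 55539068, plus strand) encodes a microtubule-associated kinase and is the usual histological marker of intestinal tuft cells. It shares 114 exon bases with predicted genes on the opposite strand. At 2 days Dclk1 was at 6.45, 12.8, 0.387 and 4.42 CPM in the knock-out and at 0.398, 4.26, 1.44 and 7.82 CPM in the wild type. Both groups ran from under 1 CPM upward and overlapped, and the log2 fold change was 0.80 (SE 0.90, edgeR adjusted p = 0.899). Leaving out knock-out library 2 gave 0.11, and leaving out wild-type library 4 gave 1.57. At 14 days Dclk1 was at 15, 7.25, 28.3, 15.9 and 16.0 CPM in the knock-out and at 16.2, 3.23, 28.1, 7.23 and 2.88 CPM in the wild type. In 4 of 5 knock-out libraries it was above the wild-type mean of 11.5 CPM, and the wild type spread from 2.88 to 28.1 CPM. Between the genotypes the log2 fold change was 0.53 (SE 0.55, edgeR adjusted p = 0.957), 1.16 without wild-type library 3 and 0.23 without knock-out library 3.

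Avil (chromosome 10, 127000709 to 127020994, plus strand) encodes advillin, an actin-bundling protein of the villin family found in the tuft of long microvilli. Its promoter window is the one above with the octamer core, and its exons share 165 bases with Tsfm on the opposite strand. At 2 days Avil was at 1.12, 5.34, 1.55 and 1.60 CPM in the knock-out and at 3.87, 2.87, 0.576 and 3.35 CPM in the wild type. Knock-out library 2 was above all others, and the other 3 knock-out libraries lay below 3 of the 4 wild-type libraries. The log2 fold change was -0.14 (SE 0.68, edgeR adjusted p = 0.974) and ran from -0.91 to 0.09 when single libraries were left out. At 14 days Avil was at 15.8, 9.48, 8.53, 8.76 and 6.56 CPM in the knock-out and at 6.60, 5.40, 11.1, 4.82 and 7.27 CPM in the wild type. In 4 of 5 knock-out libraries it was above the wild-type mean of 7.04 CPM, and the log2 fold change was 0.49 (SE 0.30, edgeR adjusted p = 0.957). Without knock-out library 1 it was 0.25.

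Fyb (chromosome 15, 6522853 to 6663313, plus strand) encodes an adaptor protein best known in T cells and myeloid cells. It shares 550 exon bases with predicted genes on both strands. At 2 days Fyb was at 0.489, 5.62, 1.55 and 4.91 CPM in the knock-out and at 1.19, 0.792, 0.748 and 1.73 CPM in the wild type. The 2 highest libraries, 2 and 4, were knock-outs and so was the lowest. Its log2 fold change of 1.49 (SE 0.74) had an unadjusted p of 0.0662 and an edgeR adjusted p of 0.866. At 14 days Fyb was at 10.7, 8.09, 15, 9.01 and 15.7 CPM in the knock-out and at 5.82, 5.46, 20.9, 7.12 and 5.76 CPM in the wild type. All 5 knock-out libraries were above 4 of the 5 wild-type libraries, and wild-type library 3 was the highest of all. Between the genotypes the log2 fold change was 0.38 (SE 0.38, edgeR adjusted p = 0.957), and 0.95 without that library.

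Cd24a (chromosome 10, 43578284 to 43584265, plus strand) encodes a small surface glycoprotein that tuft, Paneth, enteroendocrine and stem cells of the crypt share. At 2 days it was at 329, 368, 327 and 279 CPM in the knock-out and at 822, 385, 397 and 378 CPM in the wild type. Every knock-out library lay below every wild-type library, by little except against wild-type library 1. The log2 fold change was -0.61 (SE 0.25) with an unadjusted p of 0.0311 and an adjusted p of 0.866 by edgeR, and it was -0.25 without wild-type library 1, the library with the largest total and mitochondrial share. At 14 days Cd24a was at 321, 245, 388, 288 and 216 CPM in the knock-out and at 226, 214, 398, 222 and 188 CPM in the wild type. The groups overlapped, and the log2 fold change of 0.22 (SE 0.22, edgeR adjusted p = 0.957) had the opposite sign to that at 2 days. Leaving out knock-out library 3 gave 0.09, and leaving out wild-type library 3 gave 0.46.

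Across the markers at 2 days, 9 passed the filter on low counts, 6 had a positive and 3 a negative difference, and the median log2 fold change was 0.69 against 0.01 over all 13031 genes tested, of which 51% had a positive difference. Of the 9, 0 were called at an adjusted p under 0.05 by edgeR, where the share of all genes called was 0%. At an unadjusted p under 0.05 there were 3, against 4.91% of all genes. Alox5ap and Spib were the 2 on the higher side, where 2.72% of all genes lay, and Cd24a was the 1 on the lower side, where 2.19% lay. The genotypes did not overlap in 2 of the 9, against 3.98% of all genes: Alox5ap with all knock-out libraries above (2.03% of genes) and Cd24a with all below (1.94%). Alox5ap passed the filter at 2 days only through its knock-out libraries, so its place in these counts is a description only. At 14 days all 10 passed the filter, 8 were positive and 2 negative, with a median of 0.39 against 0.01 over 13991 genes, of which 51% were positive. By edgeR 0 of the 10 were called (0% of all genes), 0 had an unadjusted p under 0.05 (3.99% of all genes), and 0 had groups that did not overlap (0.529% of all genes). DESeq2 called 13 genes at 2 days and 1 at 14 days, and limma voom called 0 at both, none of them a tuft marker.

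**Figure D2:**
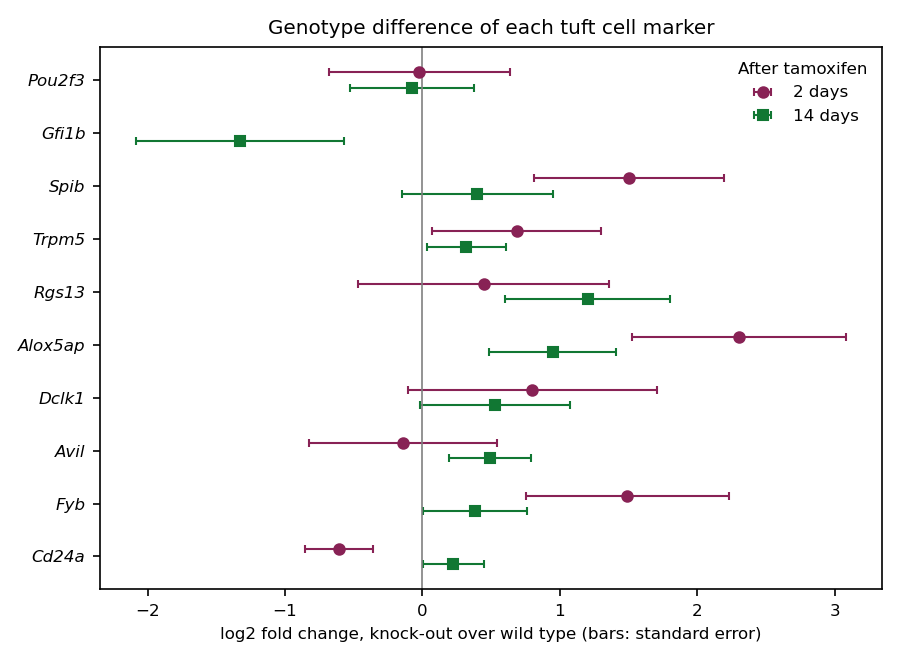
The log2 fold change of knock-out over wild type (horizontal axis) for each marker at 2 days (circles) and 14 days (squares), with its standard error (bars). Alox5ap has the largest value at 2 days, 2.31, and Rgs13 at 14 days, 1.2, while Pou2f3 sits at -0.02 and -0.08; Gfi1b failed the filter at 2 days.

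A single model of the 18 libraries asked whether the genotype difference itself differed between the times. Of the 10 markers 0 were called by edgeR (0% of 15458 genes), with a smallest adjusted p of 0.764. DESeq2 called 13 genes and limma voom 0, none of them a tuft marker. At an unadjusted p under 0.05 there were 2, against 5.96% of all genes: Gfi1b, whose fit rests on 3 wild-type reads at 2 days, and Cd24a, with a difference between the times of 0.82 (SE 0.36, unadjusted p = 0.0334, edgeR adjusted p = 0.815). The difference for Cd24a was 0.47 without wild-type library 1 at 2 days. Of the 10, 3 had a positive value, against 48.9% of all genes, and the median was -0.34 with Gfi1b and -0.30 without it. Without knock-out library 2 at 2 days the median turned to 0.41, and without wild-type library 3 at 14 days to 0.12. Time and count table cannot be told apart here.

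Averaged over both times, Alox5ap had a genotype difference of 1.61 (SE 0.41, unadjusted p = 8.38e-04), higher in the knock-out in 9 of 9 libraries against the wild-type mean of their time, yet its adjusted p was 0.829 by edgeR. Leaving out single libraries gave 1.45 to 1.80, and over 26 alternative fits the adjusted p of Alox5ap ran from 0.0888 to 0.986. By unadjusted p Fyb followed with 0.92 (SE 0.39, unadjusted p = 0.0265, edgeR adjusted p = 0.829), then Spib with 0.94 (SE 0.46, unadjusted p = 0.0512). Pou2f3 stood at -0.06 (SE 0.41). Of the 10 markers 0 were called, against 0.00647% of 15458 genes, and 2 had an unadjusted p under 0.05, against 5.81%. Both lay on the higher side, where 3.24% of all genes lay. DESeq2 called 7 genes and limma voom 1, none of them a tuft marker. There were 8 positive values (50.9% of all genes), with a median of 0.74, or 0.66 without Gfi1b, against 0.01 over all genes. The median was 0.21 without knock-out library 2 at 2 days.

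The summed level of the markers varied widely between libraries of a group. Leaving out Cd24a, whose reads would dominate the sum, the other 9 summed to 23.9, 58.4, 12.2 and 22.0 CPM in the knock-out at 2 days and to 13.9, 26.7, 8.92 and 22.7 CPM in the wild type. Knock-out library 2 stood above all others and held the highest value of 7 of the 10 markers. At 14 days the sums were 74.8, 44.2, 113, 63.3 and 73.7 CPM in the knock-out and 59.0, 29.1, 108, 39.1 and 35.3 CPM in the wild type. Library 3 of each genotype was the highest; knock-out library 3 held the highest value of 4 markers (Trpm5, Rgs13, Alox5ap, Dclk1) and wild-type library 3 that of another 4 (Pou2f3, Gfi1b, Fyb, Cd24a). Means were 29.1 ± 20.2 and 18.1 ± 8.12 CPM at 2 days (SD, n = 4 each) and 73.9 ± 25.2 and 54.1 ± 32.2 CPM at 14 days (SD, n = 5 each), differences smaller than the knock-out SD at 2 days and than both SDs at 14 days.

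**Figure D3:**
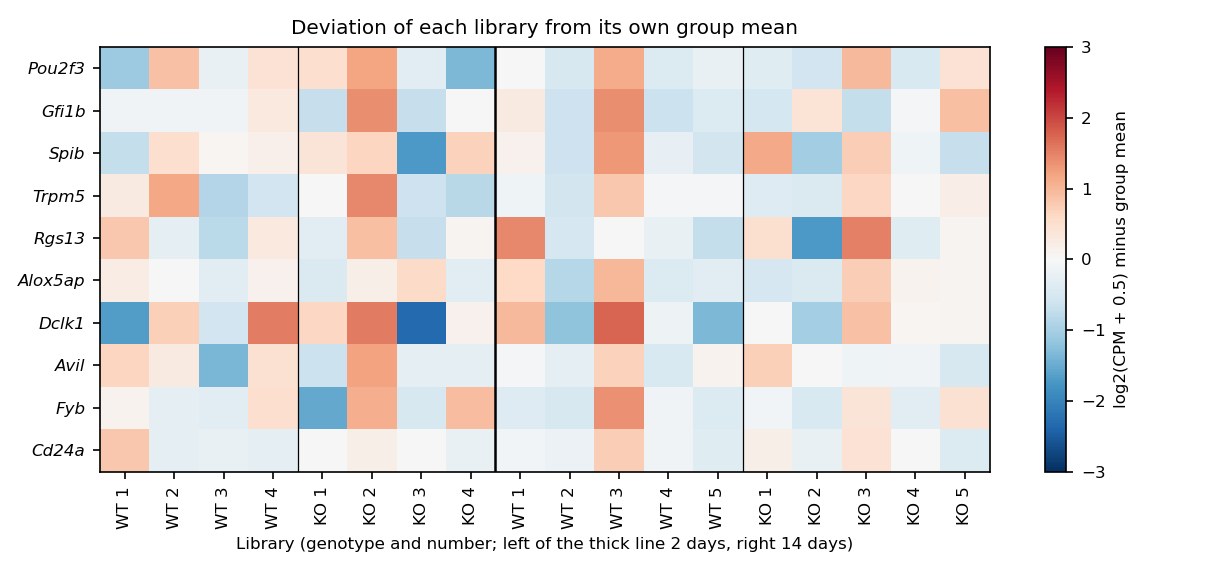
Deviation of each library from its own group mean on the log2(CPM + 0.5) scale (colour, red above and blue below) for the 10 markers (rows) in 18 libraries (columns), wild type (WT) and knock-out (KO) at 2 and 14 days. Knock-out library 2 at 2 days, highest in 7 markers, and wild-type library 3 at 14 days, among the 3 highest in 9 of 10, form red columns.

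Other cell types of the sorted fraction differed in some of these same libraries. At 14 days wild-type library 3 held the top summed CPM of its group for Paneth markers (18703 against a wild-type median of 3612), absorptive enterocyte markers (4470 against a wild-type median of 933) and enteroendocrine markers (378 against a median of 162). Knock-out library 2 at 2 days had the highest sum of enteroendocrine markers, 349 CPM against a knock-out median of 99.9. Knock-out library 3 at 14 days was at its group's lowest for Defa30 (678 CPM), Chgb (124 CPM) and Cck (10.3 CPM). Its Defa24, at 2224 CPM, and Fabp1, at 593 CPM, lay within the knock-out ranges of 1954 to 3137 and 128 to 1073 CPM. Paneth, enteroendocrine and tuft cells share Cd24a. Over whole groups at 2 days the Paneth sums were 715–2136 CPM in the knock-out and 211–3154 CPM in the wild type, and the enteroendocrine sums 27.3–349 and 97.5–157 CPM. Goblet cell markers were positive in 7 of 7 at both times (51% of all genes), with 0 called by edgeR (0% of all genes). At 2 days Tff3 and Clca1 had an unadjusted p under 0.05, both higher (2.72% of all genes). At 14 days Agr2 did, also higher (2.44% of all genes). Averaged over the times all 3 did, higher again (3.24% of all genes). The goblet sums were 465–1242 and 459–663 CPM at 2 days and 1745–12312 and 1331–4474 CPM at 14 days, where the medians were 3396 and 2072 CPM. Knock-out library 1 at 14 days held the highest Agr2 of its group, 2736 CPM, and the highest Tff3, 2476 CPM. The part of these cells in the marker values was not tested. With 1 of these libraries left out, the median of the markers was -0.11 at 2 days (without knock-out library 2). At 14 days it was 0.83 without wild-type library 3 and 0.22 without knock-out library 3.

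**Figure D4:**
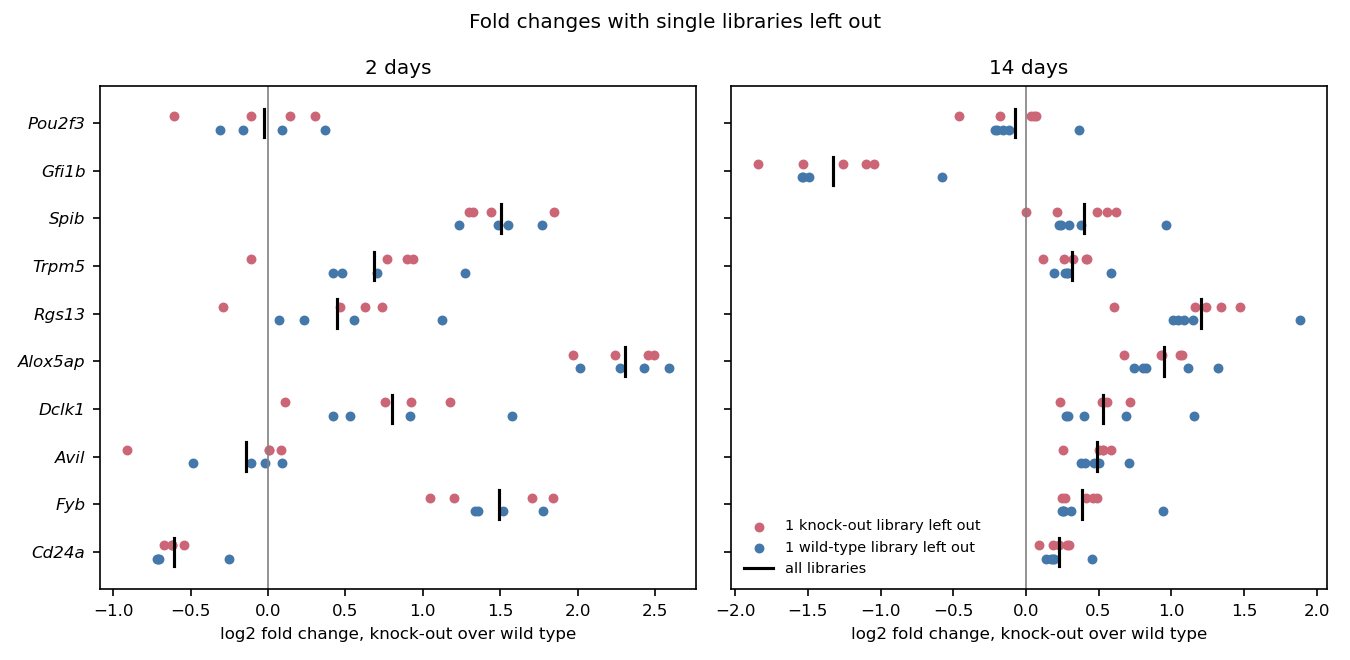
The log2 fold change of each marker (horizontal axis) with all libraries (black line) and with 1 knock-out (red) or 1 wild-type (blue) library left out, at 2 days (left) and 14 days (right). At 2 days Trpm5, Rgs13, Avil and Pou2f3 cross 0, while Alox5ap stays between 1.97 and 2.59.

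Several markers are also made by other cells that a sort could hold, and the lists of those cells were counted the same way. Markers of T and innate lymphoid cells, a source of Fyb, summed to 3.44–12.4 CPM in the knock-out and 0.594–4.63 CPM in the wild type at 2 days, with Cd2 at 0 in every library. At 14 days they summed to 4.09–11.6 and 3.39–6.05 CPM. Of these 11 genes 3 were tested at 2 days, all 3 positive (51% of all genes), and 0 were called by edgeR (0% of all genes). Averaged over the times Gzma had an unadjusted p under 0.05 by edgeR, on the higher side (3.24% of all genes). Myeloid markers, a source of Alox5ap and Fyb, summed to 21.8–37.9 CPM in the knock-out and 30.0–67.6 CPM in the wild type at 2 days, overlapping ranges, and to 31.9–50.2 and 17.3–46.2 CPM at 14 days. Itgam, named for this reason, had an unadjusted p under 0.05 by edgeR at 2 days, on the lower side (2.19% of all genes). Averaged over the times it was also lower at that threshold (5.81% of all genes in either direction). Of the mast cell and basophil markers, a further source of Alox5ap and Rgs13, 5 of 6 (Cpa3, Mcpt1, Mcpt2, Ms4a2, Fcer1a) were at 0 in all 2-day libraries. The mast cell sums at 14 days were 11.2–21.4 CPM in the knock-out and 5.66–11.5 CPM in the wild type, mostly from Kit. The log2 fold change of Kit was 0.65 at 14 days (SE 0.23, unadjusted p = 0.0123, edgeR adjusted p = 0.957). Averaged over the times it was 0.48 (SE 0.19, unadjusted p = 0.0228, edgeR adjusted p = 0.829). On the higher side at an unadjusted p under 0.05 lay 2.44% and 3.24% of all genes.

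B and plasma cell markers, which share Spib and Cd24a, summed to 1.03–2.89 CPM in the knock-out and 0.688–1.62 CPM in the wild type at 2 days, with Pax5 at 0, and to 3.97–6.85 and 2.05–5.66 CPM at 14 days. M cell markers, whose cells also use Spib, summed to 15.2–45.4 and 19.3–27.2 CPM at 2 days, with Gp2, their defining surface receptor, at 0. At 14 days they summed to 49.96–184 and 37.4–111 CPM. Of the M cell genes 4 of 4 tested were positive at 2 days and 3 of 5 at 14 days (51% of all genes at each time). By edgeR 0 were called (0% of all genes). At 14 days Ccl9 had an unadjusted p under 0.05, on the higher side (2.44% of all genes). Averaged over the times 5 of 5 were positive (50.9% of all genes). There Ccl9 and Tnfaip2, named for this reason, were under 0.05, both higher (3.24% of all genes). Markers of megakaryocytes and red cells, which use Gfi1b, summed to 0–0.724 CPM in the knock-out and 0.324–3.33 CPM in the wild type at 2 days, with Hba-a1, Hbb-bs, Pf4 and Ppbp at 0, and to 0.828–4.14 and 0.288–2.0 CPM at 14 days. Itga2b, the 1 gene of this list tested at 2 days, was lower (unadjusted p = 0.0356, edgeR adjusted p = 0.866), where 2.19% of all genes lay under 0.05. The part of these cells in the marker values was not tested.

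The other tuft cell genes, 52 in 6 roles, were counted in the same way. At 2 days 33 were tested, 23 positive and 10 negative, with a median of 0.25. At 14 days 38 were tested, 27 positive and 11 negative, with a median of 0.27. Of all genes 51% were positive at each time. By edgeR 0 were called at either time (0% of all genes). At an unadjusted p under 0.05 there was 1 lower at 2 days (2.19% of all genes), Runx1, and 1 higher at 14 days (2.44% of all genes), Atoh1, the secretory lineage factor, named after its value was seen. Averaged over the times 34 of 42 were positive (50.9% of all genes). In that comparison 3 of the 42, Ffar3, Gng13 and Bmx, named for this reason, had an unadjusted p under 0.05, all higher (3.24% of all genes).

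By role, the kinases, phosphatases and adaptors were positive in 7 of 10 tested at 2 days and in 11 of 14 at 14 days (51% of all genes at each time). Sh2d6, a tuft cell adaptor, ran from 1.27 to 17.4 CPM in the knock-out and from 0.978 to 7.62 CPM in the wild type at 2 days, with a log2 fold change of 1.30 (SE 0.76, edgeR adjusted p = 0.866). Plcg2, a phospholipase C, differed by 0.11 (SE 0.24) at 2 days. The genes of eicosanoid synthesis, the pathway of Alox5ap, were positive in 3 of 4 tested at 2 days and in 5 of 5 at 14 days (again 51% of all genes). Hpgds, the prostaglandin D synthase of tuft cells, had a log2 fold change of 1.29 (SE 0.86, edgeR adjusted p = 0.866) at 2 days and 0.28 (SE 0.32) at 14 days, while Pla2g4a, the phospholipase that frees arachidonic acid, was at -0.25 (SE 0.19) and 0.23 (SE 0.21).

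In chemosensory transduction 3 of 5 genes tested were positive at each time (51% of all genes). Itpr3, a calcium release channel of the endoplasmic reticulum, differed by 0.21 (SE 0.25) at 2 days and by -0.10 (SE 0.18) at 14 days, and Itpr2, of the same family, by 0.01 (SE 0.24) and 0.16 (SE 0.27). The cytokine genes were positive in 3 of 3 tested at 2 days and 2 of 3 at 14 days (again 51% of all genes). The receptor chains through which IL-13 acts gave 0.19 (SE 0.19) and 0.27 (SE 0.18) for Il13ra1 and 0.32 (SE 0.28) and 0.23 (SE 0.19) for Il4ra. Krt18, a keratin strong in tuft cells, gave 0.43 (SE 0.27) and 0.10 (SE 0.21), and Vil1, the microvillus protein villin, 0.20 (SE 0.21) and -0.26 (SE 0.15). Of the nuclear factors, Sox9 gave 0.08 (SE 0.24) and -0.11 (SE 0.17), and Runx1 -0.78 (SE 0.32, unadjusted p = 0.0305, edgeR adjusted p = 0.866) and -0.02 (SE 0.26).

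IL-13 released downstream of tuft cell signals is known to induce a set of epithelial genes, and 12 of these were listed. Of the 12, Clca1 and Fcgbp also stand in the goblet list, Ang4 in the Paneth list and Il4ra among the other tuft genes. These genes are therefore counted more than once. This list, like the others above, was made with earlier results of these data known, so its counts are a description only. At 2 days 7 of the 12 were tested, 7 were positive (51% of all genes) and 0 were called by edgeR (0% of all genes). Of the 7, 4 (Clca1, Gsdmc2, Gsdmc3 and Gsdmc4) had an unadjusted p under 0.05 on the higher side (2.72% of all genes). The smallest edgeR adjusted p was 0.323. The sum of the 12 ran from 201 to 895 CPM in the knock-out and from 200 to 330 CPM in the wild type. At 14 days 5 of 9 tested were positive (51% of all genes), and the sums, 827 to 2271 and 758 to 1790 CPM, overlapped. Markers of absorptive enterocytes were positive in 7 of 7 at 2 days and in 0 of 7 at 14 days (51% of all genes at each time). By edgeR 0 were called at either time (0% of all genes). Their sums at 2 days were 223 to 1280 CPM (median 334) in the knock-out and 173 to 245 CPM (median 223) in the wild type. Knock-out library 1 at 2 days held the highest Fabp1 of its group, 244 CPM, and the highest Apoa1, 394 CPM. At an unadjusted p under 0.05 there were 6 of the 7 at 2 days, Mttp, Slc2a5, Apoa4, Rbp2, Fabp1 and Alpi, all higher (2.72% of all genes), and 1 at 14 days, Alpi, lower (3.99% of all genes in either direction). Their part in the tuft marker values was not tested.

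Levels were compared between the markers per length, as CPM per kilobase of exon over both genotypes, here with all 18 libraries scaled together. At 2 days Cd24a led with 188 ± 78.3, followed by Pou2f3 (1.45 ± 0.92), Trpm5 (1.17 ± 0.96), Spib (1.01 ± 0.78), Avil (0.88 ± 0.56), Alox5ap (0.54 ± 0.49), Rgs13 (0.47 ± 0.39), Fyb (0.47 ± 0.43), Dclk1 (0.37 ± 0.33) and Gfi1b (0.17 ± 0.37; SD, n = 8 libraries). At 14 days Cd24a, at 91.8 ± 26.5, was followed by Rgs13 (2.93 ± 2.73), Alox5ap (2.26 ± 1.29), Avil (2.17 ± 0.85), Trpm5 (1.74 ± 0.63), Fyb (1.68 ± 0.86), Pou2f3 (1.27 ± 0.72), Spib (1.16 ± 0.83), Dclk1 (0.80 ± 0.53) and Gfi1b (0.45 ± 0.50; SD, n = 10 libraries). At both times Cd24a stood apart from the next gene, and no other neighbours in the order differed by more than the larger of their SDs.

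On the same joint scale, the wild-type mean CPM at 14 days was 8.81 times that at 2 days for Alox5ap, 6.03 times for Fyb, 4.4 times for Rgs13 and 2.47 times for Dclk1. For Avil it was 1.97, for Spib 1.91, for Trpm5 1.74, for Pou2f3 0.895 and for Cd24a 0.375. In the knock-out the ratios were 3.25 for Alox5ap, 2.74 for Fyb, 7.48 for Rgs13, 2.02 for Dclk1, 3.02 for Avil, 1.33 for Trpm5, 0.874 for Spib, 0.851 for Pou2f3 and 0.660 for Cd24a. No ratio is given for Gfi1b, which had 3 wild-type reads at 2 days. The wild-type ratios of Alox5ap and Rgs13 also rest on few reads, 1 to 9 and 1 to 33 per library at 2 days. Time and count table cannot be told apart, so these ratios were not tested.

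The markers also varied together across libraries. Each marker's deviation from its group mean in log2 CPM was correlated with the mean deviation of the other markers over the 18 libraries, as a description. Pearson's r was highest for Dclk1 (0.71), then Trpm5 (0.66) and Fyb (0.62), and lowest for Cd24a (0.38). All genes of a library share its depth and composition, and 2 libraries, knock-out library 2 at 2 days and wild-type library 3 at 14 days, lie farthest out. Without these 2, r was 0.69 for Rgs13, 0.60 for Dclk1, 0.30 for Pou2f3 and 0.10 for Cd24a. Within the times the order differed: r for Cd24a was -0.01 at 2 days and 0.78 at 14 days, and r for Gfi1b 0.82 and 0.22.

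The genes most like the mean of the markers among 10560 ranked were, by Pearson's r over the 18 libraries, Zfp458 (0.89), Sh2d6 (0.86), Ift22 (0.86), Ddrgk1 (0.85), Rpl35 (0.84) and Fxr1 (0.83). Sh2d6 is the one that stands in the list of other tuft cell genes, and its r was 0.80 without the 2 farthest libraries. Its CPM was 3.47, 17.4, 1.27 and 11.5 in the knock-out at 2 days and 27.8, 14.7, 43.7, 18 and 13.8 at 14 days. In the wild type it was 2.53, 7.62, 0.978 and 2.48 at 2 days and 18.7, 8.10, 47.1, 13.6 and 7.20 at 14 days. Its highest libraries were knock-out library 2 at 2 days and library 3 of each genotype at 14 days, as for the summed markers. Sh2d6 is given here because of its correlation with the markers over these same libraries, so this likeness follows from the choice. Over the 25 other tuft genes ranked the median r was 0.30, against 0.01 over all genes ranked.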

How the data were processed

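The authors deposited whole-number read counts per Ensembl gene, 1 table per time, not normalized. The submitters' processing notes name GRCm38, STAR 2.4.2a and bcl2fastq 2.20.0.422. For counter, annotation and strand setting, nothing was given in the sources used here. No molecular identifiers are named, so intervals and floors cover counting error only. Depth was 11.1 to 40.5 M counts per library, which limits markers with few reads. No libraries were identical.

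Symbols came from GENCODE M21 (42548 of 43432 identifiers). Each time was fitted alone in edgeR 4.0.16 (R 4.3.3): filterByExpr with a minimum count of 10, TMM, quasi-likelihood test, Benjamini-Hochberg over all genes tested, calls at an adjusted p under 0.05. The difference between times and the average came from 1 fit of 18 libraries. CPM used TMM-scaled totals; log2 CPM for correlations used a prior count of 2. The script was tested on simulated data. Alternatives included DESeq2 1.42.0, limma 3.58.1, scaling, filters and single libraries left out. The members and lists were chosen with earlier results of these data known. Other tuft genes named were the 2 of highest CPM per role, and the 6 genes of highest correlation with the members; others are said to have been named after their values were seen. An item among the other tuft genes is not reported here.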

Additional observations from a re-analysis of the deposited data

Results flagged for a closer look

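Of 40 groups of marker values examined, 10 had a library whose gap to the nearest other was a large share of the group's range (Dixon's 95% critical value). Chance flags about 1 in 20 groups of normally distributed values. CPM on few reads, taken here without logarithms, need not be so distributed, and every flagged library was the highest of its group. The rate is therefore no measure of how unusual these 10 are. The groups are not independent, since 6 of the 10 come from 1 library. In wild-type library 3 at 14 days these were Pou2f3 at 9.59 CPM, Gfi1b at 3.65 CPM, Spib at 7.67 CPM, Trpm5 at 19.3 CPM, Fyb at 20.9 CPM and Cd24a at 398 CPM, each the highest of its group. Wild-type library 1 at 14 days was the highest for Rgs13, at 8.36 CPM. A different library, wild-type library 1 at 2 days, was the highest for Cd24a, at 822 CPM. Knock-out library 2 at 2 days was the highest for Avil, at 5.34 CPM. Gfi1b at 2 days had reads in wild-type library 4 only among the wild type, at 0.162 CPM, on 3 reads, where 3 libraries at 0 fix the gap.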

How the results depend on the processing

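In 841 fits of the markers under the alternatives 801 kept the direction and 40 reversed, 35 of these with 1 library left out; none had an adjusted p under 0.05, and the smallest was 0.0888. Genes called by DESeq2 were 13 at 2 days, 1 at 14 days, 13 for the difference between times and 7 for the average; edgeR with no filter on low counts called 7, 2, 98 and 40. The joint fit called 2 at 2 days. With 1 library left out the calls ran from 0 to 1 at 2 days, 0 to 0 at 14 days, 0 to 1 for the difference and 1 to 2 for the average. The median of the markers then ran from -0.11 to 0.92, 0.22 to 0.83, -0.72 to 0.41 and 0.21 to 0.92.

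Reversed values were Pou2f3 at 0.18 (2 days) and 0.047 (average) in limma voom. Without wild-type library 1 at 2 days and knock-out library 5 at 14 days together, an alternative chosen after seeing the data, the average called 2 genes, Cd24a was at 0.031 for the average, and Dclk1 was at 0.12 and Pou2f3 at 0.15 for the difference. With 1 library left out, Avil ran from -0.91 to 0.091 at 2 days and -0.22 to 0.29 for the average, Dclk1 from -1.08 to 0.40 for the difference, Gfi1b from -0.078 to 2.49 for the average, and Rgs13 from -0.29 to 1.12 at 2 days. Spib ran from -0.00013 to 0.97 at 14 days, and Trpm5 from -0.11 to 1.27 at 2 days and -0.97 to 0.41 for the difference. Pou2f3 ran from -0.61 to 0.37, -0.46 to 0.37, -0.47 to 0.51 and -0.35 to 0.17 (2 days, 14 days, difference, average). The causes were not tested. No paired analysis was possible because the columns carry no replicate numbers. At 14 days the column names hold a letter, B or J, in both genotypes; with it as a covariate, an alternative chosen after seeing the data, 0 genes were called, each marker kept its direction and their median was 0.43. Depth limits Gfi1b, Rgs13 and Alox5ap most, with 0 to 60 reads per library at 2 days.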
